A study of Mus musculus with 46 samples.

Results

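Interleukin 6 family cytokines signal through the shared receptor chain gp130, and their transcripts were followed here in mouse hearts in which Lmna, the gene of the nuclear lamina proteins lamin A and lamin C, was targeted in heart muscle cells. The members are 10 genes chosen by name among the 55359 rows of the deposited count table, and each name matched 1 row. They are the ligands Il6, Il11, Lif, Osm and Clcf1, the receptor chains Osmr, Il6ra and Il6st (gp130), the transcription factor Stat3, and the inhibitor Socs3. In this family a ligand binds its own receptor chain and draws in gp130, whose kinases of the JAK family then phosphorylate STAT3. Phosphorylated STAT3 enters the nucleus and switches on genes that include Socs3, whose protein binds gp130 and damps the signal. In the heart the pathway is known for survival and growth of cardiomyocytes under stress, and IL11 and oncostatin M are studied there in fibrosis and in remodelling of injured muscle. These libraries measure messenger RNA, so ligand protein and STAT3 phosphorylation were not measured.

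All 46 libraries came from perfused hearts of adult mice that carried the Myh6MCM transgene (Tg/0), a tamoxifen-activated Cre recombinase under the cardiomyocyte promoter of Myh6, and all mice, controls included, received tamoxifen on 4 consecutive days at an age of 6 to 8 weeks. Because the Cre acts in cardiomyocytes, the other cells of these hearts keep their Lmna. A set of 26 whole-transcript NEBNext poly(A) libraries compared Lmna F/F with Lmna +/+ hearts 1 week (4 F/F, 5 +/+), 11 days (2 F/F, 3 +/+) and 2 weeks (5 F/F, 7 +/+) after tamoxifen. A set of 20 QuantSeq 3′ tag libraries, all taken 2 weeks after tamoxifen, compared Lmna F/F with Lmna F/+ hearts that were either cGas +/+ (6 F/F, 6 F/+) or cGas null/null (4 F/F, 4 F/+), cGas being the sensor of DNA in the cytosol. The labels do not say that each library is a separate mouse, so the p-values below measure the spread between libraries. The library totals ran between 8477358 and 25856892 counts with NEBNext and between 22099181 and 33993289 with QuantSeq.

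Lmna itself, in CPM scaled by TMM library factors (normalised CPM), lay between 27.0 and 36.9 in F/F hearts and between 45.0 and 67.7 in +/+ hearts at 1 week. At 2 weeks it was 42.2, 108, 108, 82.8 and 84.9 in F/F hearts and 105 to 125 in +/+ hearts, so that the F/F libraries 2 and 3 lay within the +/+ range. At 11 days Lmna had 58.3 and 58.4 in hearts labelled F/F, and 106, 118 and 52.1 in those labelled +/+, so that 1 library labelled +/+ lay below both labelled F/F and the 11-day values are given by label. QuantSeq tags lie at the 3′ end of a transcript and do not check the Lmna deletion. Cgas counted 0.609 to 1.20 normalised CPM in cGas null and 1.97 to 3.79 in cGas +/+ F/F hearts, which did not overlap. The heart label was met by the cardiomyocyte markers Myh6, Tnnt2, Actc1, Ryr2 and Tnni3, whose summed level was at least 27949 normalised CPM in every NEBNext and 11280 in every QuantSeq library.

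The promoters of Il6 and Socs3 are shown because these genes had the largest fold changes among the ligands and among the remaining members. The runs below are the 250 bases before the transcript start in RefSeq (GRCm38.p6), at chr5:30012864-30013113 on the plus strand for Il6 and chr11:117969367-117969616 on the minus strand for Socs3, written 5′ to 3′. Capitals mark matches, on either strand, to the STAT motif TTCNNNGAA, the AP-1 motif TGANTCA or the NF-kB motif.
Il6: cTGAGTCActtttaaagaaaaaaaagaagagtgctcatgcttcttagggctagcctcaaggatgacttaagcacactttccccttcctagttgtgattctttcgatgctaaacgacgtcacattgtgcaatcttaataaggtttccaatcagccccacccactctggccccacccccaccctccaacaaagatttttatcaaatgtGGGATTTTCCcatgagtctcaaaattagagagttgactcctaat
Socs3: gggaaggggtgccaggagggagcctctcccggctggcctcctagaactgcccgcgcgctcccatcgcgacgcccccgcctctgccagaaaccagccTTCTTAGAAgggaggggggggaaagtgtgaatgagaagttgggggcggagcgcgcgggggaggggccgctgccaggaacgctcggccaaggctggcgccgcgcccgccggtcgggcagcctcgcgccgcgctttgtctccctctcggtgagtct
The Il6 window held an AP-1 match TGAGTCA 249 to 243 bases before the start and an NF-kB match GGGATTTTCC 44 to 35 bases before it, and its start is that of the principal Il6 transcript in GENCODE. The Socs3 window held 1 STAT match, TTCTTAGAA, 154 to 146 bases before the RefSeq start; the GENCODE coding transcript of Socs3 starts 180 bases further downstream, and 2 noncoding transcripts overlap the window. Promoters were found for 8 of the 10 members. Of the other windows, that of Lif held an AP-1 and an NF-kB match and 1 of the 2 of Il11 held an AP-1 match, while those of Il6ra, Il6st, Stat3 and Osmr held none of these letters, the Osmr window lying downstream of the principal GENCODE start. Among 32851 promoter windows of the same length, 7.02% held the STAT motif, 6.75% the AP-1 motif and 7.25% the NF-kB motif. A match describes the letters only, and binding was not measured.

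At 2 weeks after tamoxifen, 8 of the 10 members were higher in F/F than in +/+ hearts, and none was lower. All 5 ligands, the oncostatin M receptor chain Osmr, Stat3 and Socs3 rose, by between 1.39-fold for Stat3 and 29.5-fold for Il6, while the chains Il6ra and Il6st did not pass the test. Of all 15627 genes tested, 16.2% were higher and 13.0% were lower by the same rule (edgeR's quasi-likelihood test, adjusted p under 0.05). The median log2 fold change was 1.96 over the 10 members and 0.04 over all genes. Il6, Il11 and Lif had at most 3, 5 and 5 counts in any +/+ heart of 2 weeks. They passed the filter on low counts through the F/F hearts of 2 weeks and could hardly have been called lower. The count of 8, the absence of lower members and the median carry this limit. The members were also chosen with earlier results of these data known, so the shares over all genes are not an independent comparison. More cells of a type and more RNA per cell, or fewer and less, cannot be told apart in these bulk samples.

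**Figure D1:**
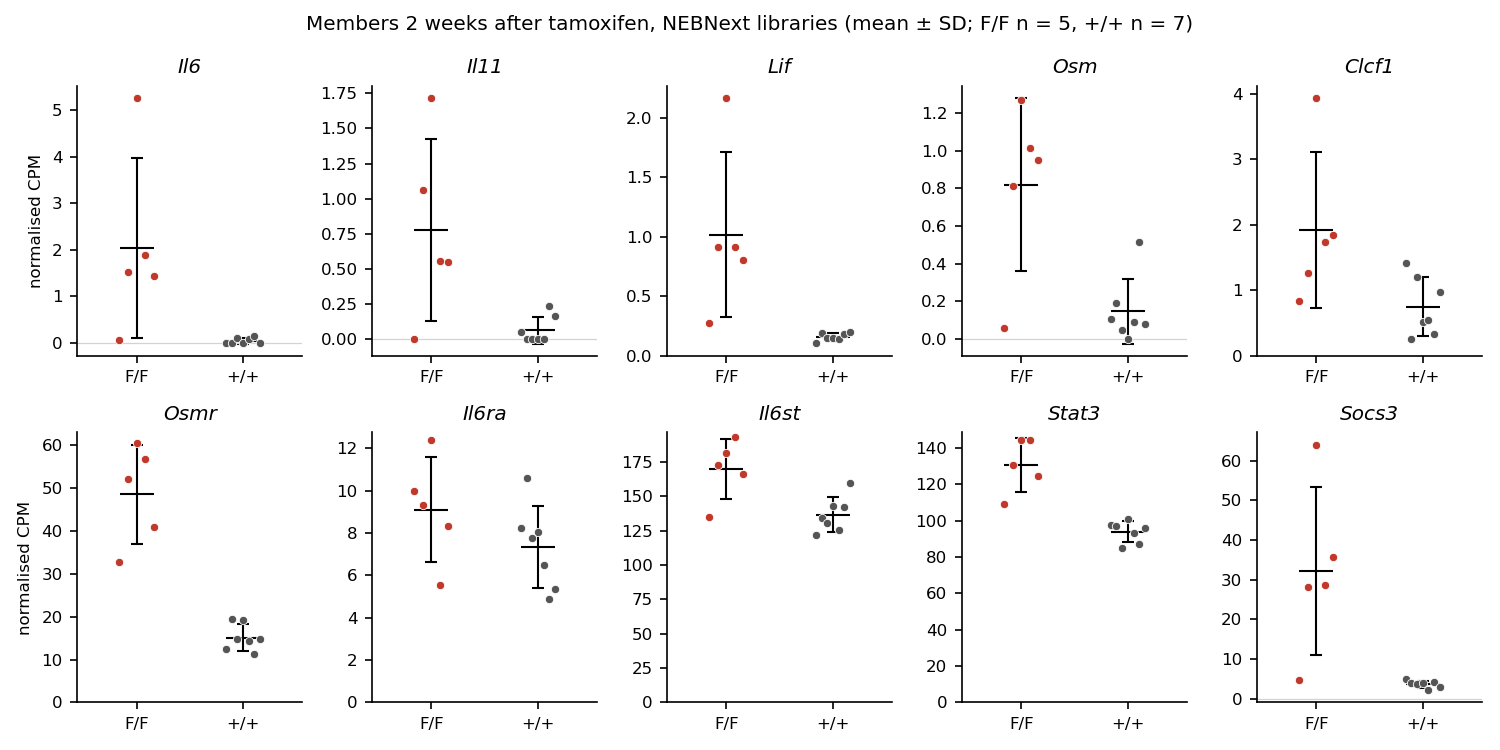
Normalised CPM of the 10 members (each panel 1 gene, y axis including 0 and scaled per gene) in NEBNext hearts 2 weeks after tamoxifen; dots are libraries (5 F/F left, 7 +/+ right), bars are the mean ± SD. Osmr, Stat3 and Lif separate all F/F from all +/+ hearts, whereas for Il6, Il11, Osm and Socs3 the lowest F/F heart lies within the +/+ range.

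Among the ligands, Il6, the founding cytokine of the family, was nearly absent from +/+ hearts. It had 0.0561, 1.52, 5.25, 1.90 and 1.44 normalised CPM in the 5 F/F hearts (1, 30, 199, 58 and 50 counts), against 0 (lowest), 0 (median) and 0.141 (highest) in +/+ hearts, of which 4 of 7 had no count. Above every +/+ heart lay 4 of the 5 F/F hearts, and the F/F library 1 lay within their range. The log2 fold change was 4.88 ± 0.83 (SE; adjusted p = 0.000143). Summed counts of 338 in F/F and 7 in +/+ hearts gave a ratio of 58.8 per unit of depth with a 95% interval of 28.2 to 147, which covers counting error only.

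Il11, a cytokine known for its action on cardiac fibroblasts, had 0, 1.06, 1.72, 0.557 and 0.548 normalised CPM in F/F hearts, against 0, 0 and 0.235 (lowest, median and highest) in +/+ hearts. Here too 4 of the 5 F/F hearts exceeded every +/+ heart and library 1 did not. The log2 fold change was 3.06 ± 0.77 (adjusted p = 0.00426), and the call was lost without F/F library 2 (adjusted p = 0.0706) or without F/F library 3 (0.0985). Lif, the leukaemia inhibitory factor, which signals through gp130 and the chain Lifr, had 0.281, 0.911, 2.16, 0.917 and 0.808 normalised CPM in F/F hearts and 0.105, 0.151 and 0.203 in +/+ hearts. All 5 F/F hearts were above all 7 +/+ hearts, with a log2 fold change of 2.35 ± 0.52 (adjusted p = 0.00145).

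Osm encodes oncostatin M, the ligand of Osmr and a product of macrophages and other leukocytes. It had 0.0561, 0.810, 1.27, 1.02 and 0.952 normalised CPM in F/F hearts, against 0, 0.0919 and 0.517 in +/+ hearts. The +/+ range was exceeded by 4 of the 5 F/F hearts, and the log2 fold change was 2.20 ± 0.65 (adjusted p = 0.0130). The call for Osm was lost without F/F library 2, where the adjusted p was 0.136, and without +/+ library 7, where it was 0.0766. Clcf1, a cytokine that acts through the chain Cntfr, had 0.842, 1.26, 3.93, 1.74 and 1.85 normalised CPM in F/F hearts and 0.253, 0.552 and 1.42 in +/+ hearts. Its ranges overlapped, with 3 of 5 F/F hearts above all +/+ hearts, and its log2 fold change of 1.14 ± 0.43 lay close to the threshold (adjusted p = 0.0486) and stayed past it in 3 of 12 fits that each left out 1 library.

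Of the receptor chains, Osmr, which pairs with gp130 to bind oncostatin M, separated the groups. It had 32.7, 52.2, 60.5, 56.7 and 40.9 normalised CPM in F/F hearts, against 11.2, 14.7 and 19.4 (lowest, median and highest) in +/+ hearts. Every F/F heart lay above every +/+ heart, and the log2 fold change was 1.72 ± 0.24 (3.29-fold, adjusted p = 1.7e-05). Il6ra, the chain that binds IL6, had 9.99, 9.31, 12.4, 5.53 and 8.34 normalised CPM in F/F hearts and 4.89, 7.78 and 10.6 in +/+ hearts, which overlapped (log2 fold change 0.52 ± 0.26, adjusted p = 0.141). Il6st, the common signalling chain gp130, had 135, 173, 181, 193 and 166 normalised CPM in F/F hearts and 122, 134 and 159 in +/+ hearts (log2 fold change 0.22 ± 0.12, adjusted p = 0.152). For Il6st 4 of the 5 F/F hearts lay above the +/+ range, by small amounts.

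Stat3 had 109, 131, 145, 144 and 125 normalised CPM in F/F hearts, against 85.1, 96.1 and 101 in +/+ hearts. The groups did not overlap, and the step was small, 1.39-fold (log2 fold change 0.48 ± 0.11, adjusted p = 0.00233). The Stat3 gene overlaps Stat5a on the opposite strand in GENCODE, and the sources used here do not give the strand setting of the counting. Clcf1 overlaps AC109138.7 on the same strand and Gm26115 on the opposite strand, and Il6ra overlaps Gm42809 on the opposite strand. Socs3, the STAT3-induced inhibitor, had 4.71, 28.1, 64.0, 28.6 and 35.6 normalised CPM in F/F hearts and 2.16, 3.92 and 4.85 in +/+ hearts. Far above the +/+ range lay 4 of the 5 F/F hearts, and library 1 lay within it, with a log2 fold change of 2.95 ± 0.41 (7.71-fold, adjusted p = 1.7e-05).

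Among the F/F hearts most members had the same highest and the same lowest library. Library 3 had the highest level of 9 members, all but Il6st, and library 1 the lowest of 9 members, all but Il6ra. Library 1 also had the lowest Lmna of the 5 F/F hearts. Without library 1 the same number of members, 8, was called, and the log2 fold changes were 5.87 for Il6, 3.52 for Socs3 and 1.95 for Osmr. Without library 3 they were 4.13 for Il6, 2.61 for Socs3 and 1.61 for Osmr.

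The 2-week hearts were sequenced in 2 pools, which the labels name KIUC033 and KIUC035. Within KIUC035 (3 F/F, 2 +/+) the same 8 members were called, among them Il6 at a log2 fold change of 5.64 ± 0.60, Socs3 at 3.66 ± 0.20 and Osmr at 2.02 ± 0.23. Within KIUC033 (2 F/F, 5 +/+) only Osmr was called, at 1.35 ± 0.24 (adjusted p = 0.0377). There Socs3 had 1.67 ± 0.67 (adjusted p = 0.174) and Stat3 0.32 ± 0.14 (adjusted p = 0.201), while Il6, Il11, Lif and Osm had too few counts to be tested. KIUC033 holds the F/F library 1.

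Levels can be set beside each other per length in the deposited TPM. In +/+ hearts at 2 weeks Il6st (25.8 ± 3.89 TPM, SD, n = 7) and Stat3 (25.4 ± 2.01) were highest and overlapped each other. Osmr followed at 4.46 ± 0.724, below both and above all others, then Socs3 at 2.37 ± 0.581, Il6ra at 1.37 ± 0.294 and Clcf1 at 0.671 ± 0.415. Osm, Lif, Il11 and Il6 were all below 0.12 TPM on average, and neighbours from Socs3 downwards overlapped. In F/F hearts Stat3 (47.0 ± 12.3 TPM, SD, n = 5), Il6st (42.5 ± 11.3), Socs3 (29.2 ± 22.2) and Osmr (19.4 ± 7.12) formed an overlapping upper set, and Clcf1 (2.39 ± 1.82), Il6ra (2.26 ± 0.824) and Il6 (2.06 ± 2.16) came next. The 5 ligands together reached 0.944, 4.81, 16.2, 6.35 and 5.55 TPM in F/F hearts, against 0.404 to 1.44 TPM in +/+ hearts. Osmr amounted to 38.3% to 52.7% of the Il6st TPM in F/F hearts (median 46.5%) and to 12.4% to 22.9% in +/+ hearts (median 17.8%), a ratio chosen after the values were seen and given without a test.

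Earlier times showed no called member. At 1 week 0 of 10 members passed edgeR's test in either direction, where 0.0256% of all genes did; 1 member had an unadjusted p under 0.05, and DESeq2 called none and found 2 at that level. That member was Stat3, with 71.3, 89.5, 92.9 and 73.5 normalised CPM in F/F hearts, against 56.0, 59.1, 72.0, 73.5 and 53.8 in +/+ hearts (log2 fold change 0.36 ± 0.12, adjusted p = 0.367). Socs3 had 3.33, 2.83, 3.72 and 2.27 normalised CPM in F/F hearts and 5.32, 2.74, 6.57, 2.34 and 2.41 in +/+ hearts, and Osmr had 9.68, 11.7, 9.09 and 11.5 in F/F and 11.2, 11.1, 5.75, 9.59 and 8.49 in +/+ hearts. For both genes the groups overlapped (log2 fold changes −0.37 ± 0.45 and 0.15 ± 0.27). Il6 was seen in 1 of the 4 F/F hearts and in 2 of the 5 +/+ hearts.

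At 11 days 0 of 10 members passed, as did 0% of all genes; 2 members had an unadjusted p under 0.05 with edgeR and 2 with DESeq2, which called none. With only 2 libraries labelled F/F the error bars were wide. Osmr had 3.94 and 3.11 normalised CPM in the libraries labelled F/F, against 3.03, 11.6 and 7.99 in those labelled +/+ (log2 fold change −1.06 ± 0.38, adjusted p = 0.475). Il6st had 96.8 and 96.6 in the libraries labelled F/F and 123, 135 and 116 in those labelled +/+ (−0.38 ± 0.17, adjusted p = 0.574), and Socs3 overlapped, with 5.74 and 4.02 against 2.50, 6.38 and 6.26. For Il6 the libraries labelled F/F had 1 count each, and those labelled +/+ had 0, 0 and 10, the last in the library with the low Lmna level.

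The change of the F/F effect between 1 week and 2 weeks was tested as a difference of log2 fold changes. All 10 differences were above 0, with the limit given above for Il6, Il11 and Lif. The test was passed by 4 members, against 6.52% of all genes that did so in this direction. The 4 were Osm (4.05 ± 1.15, adjusted p = 0.0225), Socs3 (3.32 ± 0.62, adjusted p = 0.00223), Lif (2.78 ± 0.82, adjusted p = 0.0274) and Osmr (1.57 ± 0.36, adjusted p = 0.00761). Socs3 and Osmr passed in all 21 fits that each left out 1 library, Osm in 17 (highest adjusted p 0.0746, without +/+ library 3 of 1 week) and Lif in 12 (0.0924, without F/F library 3 of 2 weeks). Il6 had the largest difference, 6.30 ± 2.33, but missed the threshold (adjusted p = 0.0748), and Stat3 had 0.12 with an adjusted p of 0.685. Each time had its own sequencing pools, so time and pool cannot be told apart in the levels, although each genotype effect was taken within its time.

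**Figure D2:**
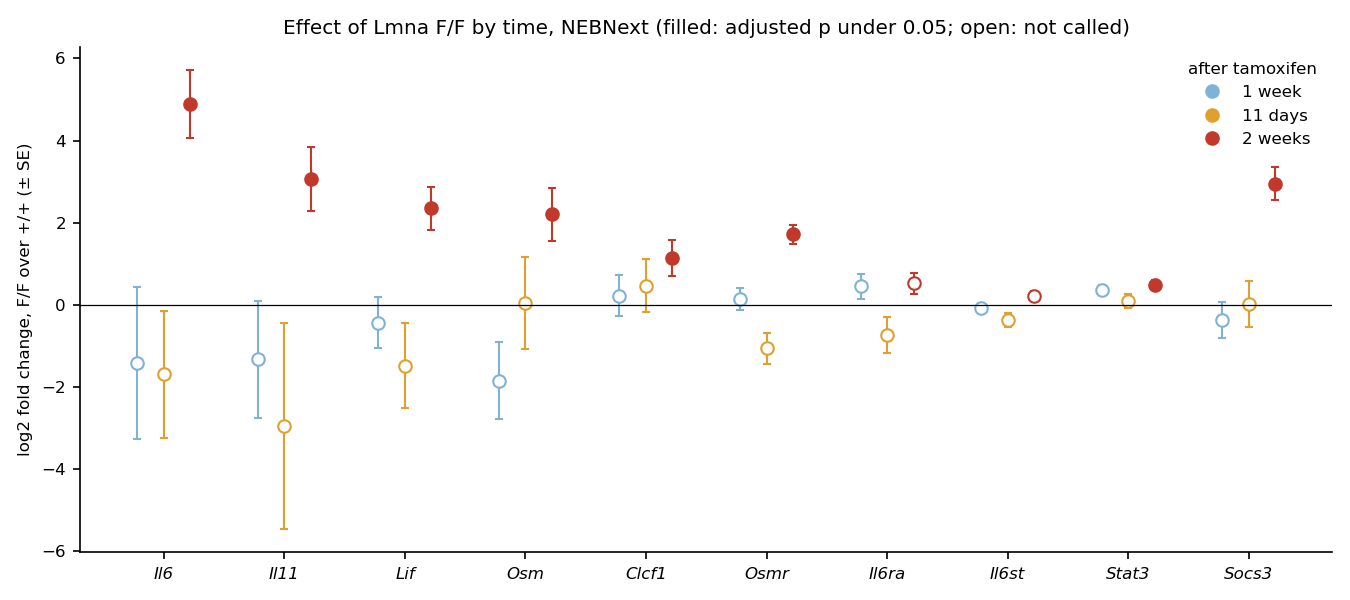
Log2 fold change of F/F over +/+ (y axis, ± SE) of the 10 members (x axis) at 1 week, 11 days and 2 weeks after tamoxifen in NEBNext hearts; filled dots have an adjusted p under 0.05. Filled dots appear at 2 weeks only, for 8 members, and Il6 stands highest at 4.88.

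In the QuantSeq hearts with cGas, Socs3 and Osmr rose in F/F against F/+ hearts, 2 of the 7 members with enough counts to be tested, against 3.74% of all 14812 genes. Il11, Lif and Osm were dropped by the filter on low counts. Socs3 had 6.70, 12.9 and 18.9 normalised CPM (lowest, median and highest of 6) in F/F hearts, against 1.34, 1.98 and 4.84 in F/+ hearts. The groups did not overlap, and the log2 fold change was 2.12 ± 0.35 (4.35-fold, adjusted p = 0.00136). Osmr had 4.05, 6.62 and 9.72 in F/F hearts and 1.93, 2.24 and 4.89 in F/+ hearts, with 5 of 6 F/F hearts above all F/+ hearts (1.08 ± 0.28, 2.11-fold, adjusted p = 0.0278). Osmr stayed past the threshold in 5 of 12 fits that each left out 1 library, with a highest adjusted p of 0.135 without F/+ library 3, and Socs3 in all 12.

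Il6 had 0.372, 0.754 and 2.88 normalised CPM in F/F hearts with cGas, against 0, 0.0236 and 0.686 in F/+ hearts, and did not pass (log2 fold change 2.34 ± 0.77, adjusted p = 0.0838), although limma-voom (adjusted p = 0.00764), the fit without a filter on low counts (7.97e-05) and the fit without sex (0.0306) called it. Without the filter the SE of Il6 was 0.48 and its p-value was that of a normal curve. Such a p-value does not carry the spread of a single gene between libraries. Il6 passed the filter of the main fit through the F/F hearts. A single F/+ heart, library 6, held 16 of the 19 Il6 counts of its group and lay above 3 of the 6 F/F hearts. Without that library the log2 fold change of Il6 was 4.74 (adjusted p = 0.00049), that of Osmr 1.30 and that of Socs3 2.47. The same library had the highest Socs3, Osmr and Stat3 of the F/+ hearts with cGas. Stat3 had 48.0, 58.6 and 72.3 in F/F hearts and 31.9, 42.9 and 58.0 in F/+ hearts (0.45 ± 0.19, adjusted p = 0.198), a log2 fold change close to the 0.48 of the NEBNext hearts, while Il6st had 0.11 ± 0.12 (adjusted p = 0.652) and Il6ra 0.40 ± 0.27 (adjusted p = 0.448).

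Without cGas, Socs3 was the only member called, where 0.500% of all genes were higher. It had 15.7, 5.23, 3.54 and 12.8 normalised CPM in F/F hearts, against 1.60, 2.29, 3.40 and 2.84 in F/+ hearts (2.10 ± 0.41, 4.28-fold, adjusted p = 0.0215). All 4 F/F hearts lay above all 4 F/+ hearts, though library 3 of the F/F hearts did so narrowly, and the call remained in 2 of 8 fits that each left out 1 library, with a highest adjusted p of 0.122 without F/F library 1. Il6 had 33, 4, 7 and 30 counts in F/F hearts and 0, 1, 2 and 1 in F/+ hearts, without overlap. Its log2 fold change of 4.14 ± 1.09 missed the threshold (adjusted p = 0.0821). The fit without a filter on low counts gave an adjusted p of 4.1e-07, with the limit given above for that fit. Osmr had 6.11, 2.47, 2.31 and 5.19 normalised CPM in F/F hearts and 3.66, 1.84, 2.20 and 3.21 in F/+ hearts, which overlapped (0.70 ± 0.34, adjusted p = 0.501). All F/+ hearts without cGas came from males, so sex entered this contrast, and every other contrast with this group, through the other groups of the fit. Without the sex term no member was called in F/F against F/+ hearts without cGas.

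**Figure D3:**
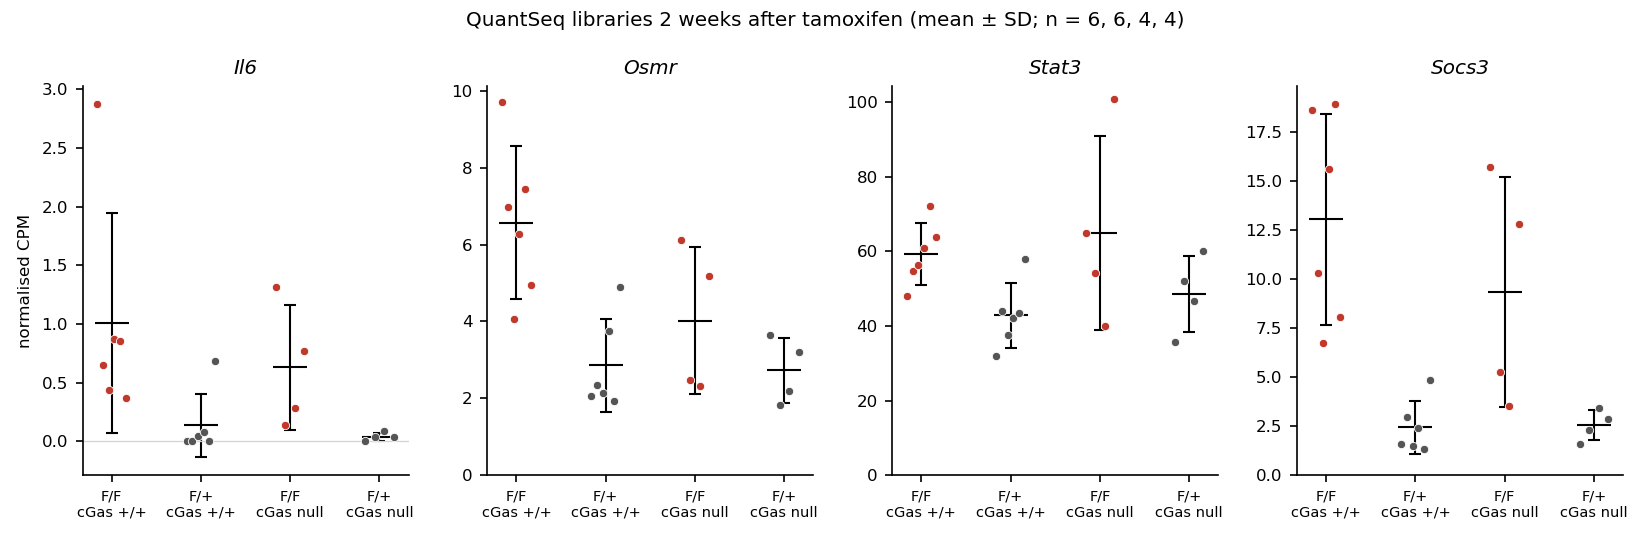
Normalised CPM (y axes including 0) of Il6, Osmr, Stat3 and Socs3 in the 4 QuantSeq groups 2 weeks after tamoxifen; dots are libraries (n = 6, 6, 4 and 4 from left to right) and bars the mean ± SD. Socs3 separates F/F from F/+ hearts with and without cGas, and a single F/+ heart with cGas stands out for Il6 at 0.686.

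The F/F effect of no member was called different between hearts without and with cGas: edgeR called 0 of 7, with 0 at an unadjusted p under 0.05, and DESeq2 called 0, against 0% of all genes. For Socs3 the difference, without minus with cGas, was −0.02 ± 0.55, for Stat3 0.01 ± 0.31, for Osmr −0.38 ± 0.46 and for Il6 1.80 ± 1.44 on the log2 scale. A range of 2 SE on each side ran between −1.12 and 1.07 for Socs3 and between −1.08 and 4.69 for Il6, so that sizeable differences were not detectable. Among F/F hearts, cGas null against cGas +/+ likewise called 0 of 7 members and 0% of all genes, with 1 member, Osmr, at an unadjusted p of 0.0213 (−0.74 ± 0.30, adjusted p = 0.856), and DESeq2 called none. Among F/+ hearts 0 of 7 members and 0% of all genes were called, with no member at an unadjusted p under 0.05, and DESeq2 called none.

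Averaging the F/F effect over both cGas genotypes used all 20 QuantSeq hearts and was added after the separate results were seen. It called 3 of 7 members higher, against 6.95% of all genes. These were Il6 (3.24 ± 0.65, adjusted p = 0.00226), Socs3 (2.11 ± 0.26, adjusted p = 2.45e-05) and Osmr (0.89 ± 0.21, adjusted p = 0.00959). All 3 passed in each of the 20 fits that left out 1 library. Il6 passed the filter on low counts through the F/F hearts and could hardly have been called lower. The count of 3 carries this limit. Stat3 missed the threshold, at 0.45 ± 0.15 (adjusted p = 0.0579; 0.0343 with DESeq2, which called it), and Il6st showed no shift of size (−0.03).

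For the sparse ligands in QuantSeq, exact two-sided permutation tests over libraries were run, 6 in all. Where cGas was present, Il11 averaged 0.253 normalised CPM in F/F hearts, against 0.111 in F/+ hearts (41 and 15 counts in all, exact p = 0.0303), and 0.166 and 0.0594 without cGas (21 and 6 counts, exact p = 0.0857). Osm averaged 0.169 in F/F hearts, against 0.0716 in F/+ hearts, where cGas was present (exact p = 0.0931) and 0.0851 and 0.0669 without cGas (exact p = 1). Lif, which rose in the NEBNext hearts, averaged 0.128 in F/F hearts, against 0.185 in F/+ hearts, where cGas was present (exact p = 0.351) and 0.198 and 0.0655 without cGas (exact p = 0.171). The smallest p these designs allow is 0.00216 with cGas and 0.0286 without. These p-values are not adjusted for the number of tests.

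The other genes of the pathway were described as lists, chosen with earlier results of these data known. Of 7 further cytokine genes of the family 3 had enough counts, and at 2 weeks in F/F against +/+ hearts 2 were higher and 1 was lower. Ebi3, a subunit of IL27, rose by 1.54 ± 0.35 on the log2 scale (adjusted p = 0.0019), and Ctf1 (cardiotrophin 1), a gp130 ligand of the heart itself, was lower (−0.58 ± 0.22, adjusted p = 0.045), a call that held in 4 of 12 fits that each left out 1 library (adjusted p up to 0.143, without F/F library 3). The list's median was 1.54, against 0.04 over all genes, of which 16.2% were higher and 13.0% were lower at 2 weeks.

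Of 5 further receptor chains 4 were tested and 1 was lower, Il11ra1, the chain that binds IL11 (−0.51 ± 0.13, adjusted p = 0.0038), with a list median of 0.03. Il27ra had 0.61 ± 0.25 (adjusted p = 0.066), and Lifr, the chain that LIF needs, had 0.03 ± 0.15. Of 9 kinases and transducers 2 were higher, among them Jak2 (0.53 ± 0.18, adjusted p = 0.032), and 1 was lower, Stat5b (−0.41 ± 0.13, adjusted p = 0.019), with a median of −0.09. By the same rule 16.2% of all genes were higher and 13.0% were lower, and the kinases and transducers lay near these shares. The Jak2 call was lost in 5 of 12 fits that each left out 1 library (adjusted p up to 0.158, without +/+ library 6) and without the pool term, and the Stat5b call without F/F library 2 (0.0978), without +/+ library 6 (0.0889) and within either pool. Of 6 further inhibitors 3 were higher and 1 was lower, with a median of 0.56: Ptpn1, a phosphatase that acts on JAK2, rose by 1.01 ± 0.22, Socs1 by 1.47 ± 0.35 and Ptpn2 by 0.77 ± 0.19, and Cish was lower (−0.57 ± 0.19, adjusted p = 0.026). The Cish call was lost without F/F library 3 (0.101), F/F library 5 (0.0605) or +/+ library 6 (0.154), and without the pool term. With no scaling factors, and on the deposited TPM, none of the lower calls of Ctf1, Il11ra1, Stat5b, Cish and Vegfa held. Neither of the 2 sheddases passed, Adam10 at 0.48 (adjusted p = 0.056) and Adam17, which releases soluble IL6 receptor, at 0.28 (adjusted p = 0.2).

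Of 16 genes known as targets of STAT3, 15 were tested. At 2 weeks 10 were higher and 1 was lower in F/F than in +/+ hearts, with a median log2 fold change of 0.96. Of all genes tested, 16.2% were higher and 13.0% were lower there. Timp1, which blocks matrix-degrading metalloproteinases, rose by 5.85 ± 0.55 (adjusted p = 4.1e-07) and Lcn2, an iron-binding acute phase protein, by 3.18 ± 0.39 (adjusted p = 5.6e-06). Bcl3, Il4ra, Junb, Mt1, Mt2, Myc, Cebpd and Pim1 rose too, Vegfa was lower (−0.80 ± 0.20, adjusted p = 0.0035), and Bcl2l1, Cebpb, Mcl1 and Ccnd1 did not pass. With cGas 5 were higher and 0 lower in F/F than in F/+ hearts (Timp1, Lcn2, Il4ra, Mt2 and Cebpd; median 0.85), and without cGas 1 was, Timp1 (4.15 ± 0.69, adjusted p = 0.0074; median 0.71). Of all genes, 3.74% were higher with cGas and 0.500% without cGas. At 1 week and at 11 days none of the 6 lists had a called gene, where 0.0256% and 0% of all genes were called in either direction. This list too was chosen with earlier results of these data known. Many of these genes have other regulators, and whether STAT3 moved them was not tested.

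**Figure D4:**
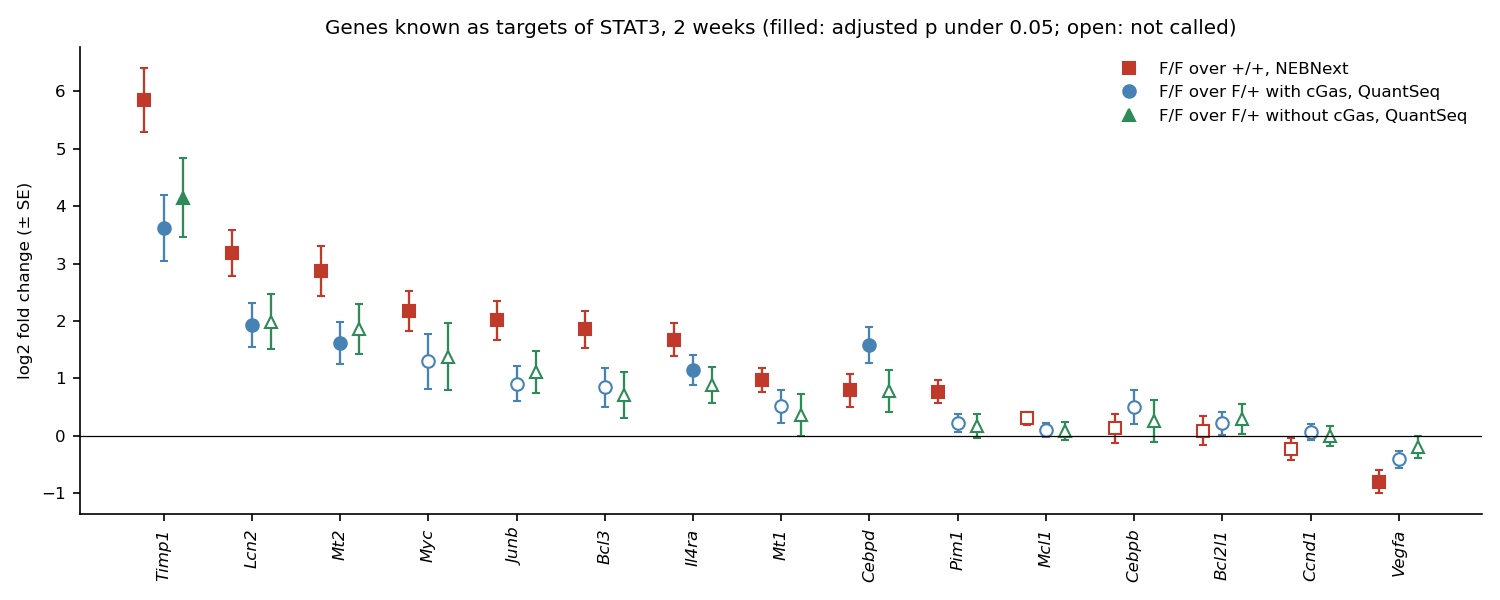
Log2 fold change (y axis, ± SE) of the 15 tested STAT3 target genes, ordered by their NEBNext value, for F/F over +/+ hearts (red squares), F/F over F/+ hearts with cGas (blue dots) and without cGas (green triangles), all 2 weeks after tamoxifen; filled symbols have an adjusted p under 0.05. Filled squares mark 10 higher genes and 1 lower gene, Vegfa, and Timp1 stands highest in all 3 comparisons.

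Markers of other cells moved with the members at 2 weeks, where 16.2% of all genes were higher and 13.0% were lower. Summed over 8 genes, macrophage markers had 589, 1350, 2101, 1047 and 1431 normalised CPM in F/F hearts, against 372 to 527 in +/+ hearts, and 7 of the 8 were higher. The 3 monocyte markers, all higher, summed to 13.0 to 76.2 in F/F and 1.54 to 2.48 in +/+ hearts, and 6 fibroblast markers, 5 of them higher, to 1186 to 2272 and 668 to 1082. F/F library 1, lowest for 9 members, was also lowest for these 3 sums, and library 3, highest for 9 members, was highest for them. T and NK cell markers summed to 3.31 to 10.7 in F/F and 0.892 to 3.85 in +/+ hearts (4 of 5 higher), and neutrophil markers to 3.46 to 14.5 and 1.26 to 6.37 (0 of the 2 tested). Cardiomyocyte markers ran the other way, 27949 to 42520 in F/F and 49845 to 67728 in +/+ hearts, with 4 of 5 lower. Endothelial markers summed to 282 to 391 in F/F and 373 to 490 in +/+ hearts (2 of 4 lower) and atrial markers to 369 to 3056 and 312 to 1072 (1 of 3 higher), and no B cell, mast cell or smooth muscle marker was called. None of these lists' defining genes was at 0 throughout either group, and the part of cell composition in the members' levels was not tested.

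In the QuantSeq hearts the macrophage sum was 303 to 625 normalised CPM in F/F hearts, against 179 to 244 in F/+ hearts, where cGas was present (6 of 8 higher), and 201 to 427 and 187 to 256 without cGas (0 of 8 called). The monocyte sum was 12.1 to 67.0 in F/F hearts, against 2.85 to 8.38 in F/+ hearts, where cGas was present (3 of 3 higher), and 6.71 to 27.1 and 2.29 to 4.43 without cGas (1 of 3). The fibroblast sum overlapped with cGas, at 1134 to 1665 in F/F and 804 to 1446 in F/+ hearts (2 of 6 higher). It overlapped without cGas too, at 1111 to 1466 and 923 to 1344 (0 of 6 called). No tested cardiomyocyte, endothelial or neutrophil marker was called with or without cGas. Socs3 was called in both comparisons, and the part of cell composition in its level was not tested. By the same rule 3.74% of all genes were higher with cGas and 0.500% without cGas.

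The genes whose log2 levels ran most like a member's were ranked by the lower of 2 Pearson correlations, over the 12 NEBNext hearts of 2 weeks and over the 20 QuantSeq hearts, among 13657 genes. These libraries fall into genotype groups, so the values describe shared group differences as well as shared variation. For Il6 the leading genes were Samsn1 (0.954 and 0.936), Plek (0.949 and 0.932) and Tnfaip6 (0.926 and 0.917). For Osmr they were Nckap1l (0.912 and 0.912), Plek (0.953 and 0.906) and Cxcl10 (0.907 and 0.894), and for Socs3 Ccl7 (0.964 and 0.958), Timp1 (0.953 and 0.953) and Spp1 (0.956 and 0.950). For Stat3 they were Slc3a2 (0.911 and 0.896), St3gal1 (0.879 and 0.880) and Esyt1 (0.878 and 0.927).

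Between members, Il6 and Socs3 correlated at 0.958 in the NEBNext hearts and 0.881 in the QuantSeq hearts, and Osmr and Socs3 at 0.897 and 0.879. Osmr and Stat3 correlated at 0.963 in the NEBNext but 0.556 in the QuantSeq hearts, and Il6 and Il6st at 0.827 and −0.02. Stat3 and Socs3 stood between these, at 0.921 and 0.731.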

How the data were processed

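Counts per gene were deposited by the authors in a table of 55359 genes for 46 libraries. A second deposited table gives TPM for the NEBNext libraries (the gene lengths are not stated) and CPM for the QuantSeq libraries; the deposited CPM equal the counts scaled by the library total within 0.01 in 20 of 20 columns. Per the labels' protocols, RNA was prepared with NEBNext UltraII Directional poly(A) or QuantSeq 3′ FWD kits. STAR 2.7.9 and mm39 are named in the submitters' processing notes; the sources used here do not give the counter, its strand setting or the annotation.

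The kits were fitted apart with edgeR 4.0.16 (quasi-likelihood test, TMM factors, filterByExpr with a minimum count of 10 and a minimum total of 15) in R 4.3.3, with group means, sex and, within 2 weeks, the pool as terms. P-values are two-sided and Benjamini-Hochberg adjusted over the 15627 NEBNext or 14812 QuantSeq genes tested, and a gene was called at an adjusted p under 0.05. Every adjusted p in the text comes from this test unless another tool is named. The SE of an edgeR log2 fold change is its size divided by the square root of the test's F statistic, not a separate estimate. Normalised CPM divide each count by the library's total over the genes tested, times its TMM factor. Alternatives used DESeq2 1.42.0, limma 3.58.1, other scalings, filters, samples and covariates. In the fits without a filter on low counts, the members' p-values were those of a normal curve for the log2 fold change over its SE. They do not carry the spread of each gene between libraries. The fit was run on simulated counts with changes set in well-counted genes only, which does not cover the sparse ligands or the differences between effects. No 2 of the 93 replicate pairs were identical. Sequences came from RefSeq (GRCm38.p6), a build other than that of the alignment, and overlapping genes from GENCODE.

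The members and lists were chosen with earlier results of these data known. All 10 members are named; of each further list the 2 genes with the smallest p at 2 weeks and any called gene that moved against its list are named with values, and other names were added after their values were seen. Some genes that this rule picks are not reported here.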

Additional observations from a re-analysis of the deposited data

Results flagged for a closer look

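In 8 of the 80 groups of 4 to 10 libraries examined, 1 library stood apart from the rest of its group by Dixon's test. The test's rate of about 1 in 20 by chance need not hold for counts this low, so no excess can be read from this number. For Il6 these were F/F library 2 at 1 week (0.0578 normalised CPM, the others at 0), QuantSeq F/F library 1 with cGas (2.88) and QuantSeq F/+ library 6 with cGas (0.686). For Osm they were QuantSeq F/F library 5 with cGas (0.429), QuantSeq F/+ library 2 without cGas (0.268, the others at 0), +/+ library 3 at 1 week (1.09) and +/+ library 6 at 2 weeks (0.517). For Lif it was QuantSeq F/F library 3 with cGas (0.281). All 8 are ligands with few counts.

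The F/F effect differed between 2 weeks and 1 week, by a test of the difference itself, for Osm (4.05 on the log2 scale), Socs3 (3.32), Lif (2.78) and Osmr (1.57). At 1 week Osm had 5 counts in all in F/F hearts, against 17 in +/+ hearts, 8 of them in +/+ library 3, and its effect there did not pass edgeR's test (adjusted p = 0.523).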

How the results depend on the processing

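At 2 weeks 8 members were higher; with the groups of the comparison only 5 were, out of 7 tested (Il6, Il11 and Lif had no value there), within pool KIUC033 1 was, and leaving out 1 library gave 5 to 8. Leaving out 1 library gave 2 to 6 members for the change between 1 and 2 weeks (4 with all libraries), 1 to 3 higher with cGas (2), 0 to 1 higher without cGas (1) and 0 to 1 lower at 11 days (0), the 1 arising without +/+ library 1. Without a filter on low counts 1 member was lower at 11 days and 2 were higher without cGas, and without sex 0 were higher without cGas. Members near 0 changed sign without cGas: Clcf1 (−0.04) to 0.20 with no scaling factors and −0.76 to 0.23 leaving out 1 library; Il6ra (−0.01) to 0.071 with limma-voom, 0.17 with no scaling factors, 0.33 with the groups of the comparison only and −0.27 to 0.21 leaving out 1 library; and Il6st (−0.16) to 0.016 with no scaling factors. Averaged over cGas, Il6st (−0.03) had 0.14 with no scaling factors and −0.063 to 0.011 leaving out 1 library. The cause was not tested.

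With no scaling factors the median log2 fold change of all genes at 2 weeks moved to 0.29 and calls to 4373 higher and 822 lower, against 2537 and 2025; limma-trend on the deposited TPM gave 5253 and 705 (median 0.21) and called all 10 members, Il6st and Il6ra among them. Over all genes, within pool KIUC033 204 were higher and 145 lower; at 1 week DESeq2 called 8 and no filter 109, against 4; at 11 days they called 31 and 201, and leaving out 1 library up to 235, against 0. With cGas DESeq2 called 767 and 287, no filter 929 and 254 and no scaling 551 and 19, against 554 and 132. Without cGas DESeq2 called 229 and 22, no filter 459 and 56, the groups only 237 and 9, no scaling 139 and 0, no sex term 20 and 1 and limma-voom 10 in all, against 74 and 4. Averaged over cGas no scaling gave 1385 and 52, against 1029 and 354. Leaving out 1 library gave 176 to 798 higher genes with cGas, 7 to 170 without cGas, 1680 to 2883 at 2 weeks and 574 to 1631 for the change between 1 and 2 weeks (1019 with all libraries). Over the 10 members, 686 values kept direction and side of the threshold, 14 gained and 45 lost a call, and 16 changed sign. No paired analysis was possible because the labels carry no replicate numbers that join libraries across groups. Depth limits the ligands: in +/+ hearts at 2 weeks Il6 had 7 counts in all.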
